A study of Mus musculus with 24 samples.

Results

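The kinesin genes were the rows of the count tables whose symbol read Kif or Kifc followed by a number and, where present, a letter. The rule took 41 of the 24456 genes listed and used no measured value. The libraries came from testes of male pups on postnatal days 20, 22, 24 and 26, either wild-type (WT) or homozygous for a knockout (KO) of *Atad2*, a gene for a bromodomain protein of chromatin. Each genotype had 4 libraries at day 20 and at day 22 and 2 at day 24 and at day 26, which makes 24. The methods of the study give a smaller number for day 20 than the labels, and all labelled libraries were used. The KO allele carries a lacZ cassette that fuses to the upstream exons of *Atad2*, and crossing to mice with Cre under the ubiquitous CMV promoter removed the neo cassette and exon 12. No other allele or treatment is given for either genotype. A name such as KO_d20_4 gives the genotype, the day and the replicate number of a library. Nothing in the labels says which libraries share a litter, so p-values measure the spread between these samples.

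Kinesins are motor proteins that walk along microtubules or take them apart, using ATP. In the seminiferous tubule they build and drive the spindles of mitosis and meiosis, carry membranes and RNA through the syncytium of germ cells, and serve the manchette and the flagellum of the spermatid. The days sampled cover the first wave of spermatogenesis, in which pachytene spermatocytes are followed by round spermatids and then by the first elongating spermatids. The members were described in groups by role: 14 cargo transport kinesins, 10 spindle and cytokinesis kinesins, 9 kinesins of cilium and flagellum, 4 of the kinesin-13 family of microtubule depolymerases and 4 of the kinesin-14 family, whose motors walk to the minus end. The gene for Cenpe, also a kinesin, did not match the rule and was counted with the partners of the spindle.

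Assigned read pairs numbered 10709667 to 19491935 per library. *Atad2* itself lay between 30.8 and 53.0 CPM (counts scaled to the library size) in the KO libraries and between 76.1 and 171 CPM in the WT libraries, so the genotypes did not overlap. Counts of the whole gene also take in the exons that the allele keeps. Markers of germ cells and of somatic cells were present: the summed level of 8 Sertoli cell genes ran from 1193 to 2644 CPM, and all 9 round spermatid and all 8 elongating spermatid genes were detected. The protocol in the labels mentions a purification of spermatogenic cell fractions, while the tissue is given as testis. WT_d20_2 stood apart, with 13.7% of its pairs aligning to several places against 4.74% to 9.16% in the other libraries.

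Windows before a start site of the 4 kinesins with the largest WT rise between days 20 and 26, Kif2b, Kif17, Kif27 and Kif18b, are shown to give the sequence beside the change. Each is the 250 bases before a start site in RefSeq, build GRCm38.p6, read in the direction of transcription. The windows are chr11:91577556-91577805 on the minus strand for Kif2b, chr4:138262001-138262250 on the plus strand for Kif17, chr13:58354948-58355197 on the minus strand for Kif27 and chr11:102925125-102925374 on the minus strand for Kif18b. Those of Kif17 and Kif27 lie inside the annotated gene, at an internal start site, and whether testis transcripts start there was not tested. Capitals mark matches, on either strand, to the CCAAT box (CCAAT), the cell cycle homology region (TTTGAA), the cyclic AMP response element (TGACGTCA) and an RFX motif (GTTGCC).
Kif2b: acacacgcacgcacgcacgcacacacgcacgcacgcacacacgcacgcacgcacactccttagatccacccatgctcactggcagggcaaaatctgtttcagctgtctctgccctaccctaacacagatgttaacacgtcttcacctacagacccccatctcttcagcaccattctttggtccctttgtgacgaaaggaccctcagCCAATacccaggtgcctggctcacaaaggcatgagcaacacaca
Kif17: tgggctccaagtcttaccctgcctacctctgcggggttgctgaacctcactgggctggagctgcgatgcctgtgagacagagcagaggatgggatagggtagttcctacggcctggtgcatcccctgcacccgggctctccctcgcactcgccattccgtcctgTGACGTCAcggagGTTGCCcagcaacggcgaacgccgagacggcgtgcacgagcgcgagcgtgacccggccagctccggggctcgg
Kif27: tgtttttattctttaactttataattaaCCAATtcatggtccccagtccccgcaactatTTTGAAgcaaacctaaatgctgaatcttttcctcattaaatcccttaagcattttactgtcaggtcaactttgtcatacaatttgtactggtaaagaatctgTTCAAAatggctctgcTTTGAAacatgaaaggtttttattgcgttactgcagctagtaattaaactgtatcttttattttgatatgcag
Kif18b: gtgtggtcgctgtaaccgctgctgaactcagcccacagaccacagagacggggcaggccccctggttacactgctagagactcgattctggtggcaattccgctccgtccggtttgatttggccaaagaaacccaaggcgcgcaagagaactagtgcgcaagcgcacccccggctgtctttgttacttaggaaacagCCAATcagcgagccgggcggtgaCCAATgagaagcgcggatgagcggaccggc

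The Kif17 window held the cyclic AMP response element at 86 bases before the start and the RFX motif at 73 bases before it. The cyclic AMP response element was present in 2 of 37 kinesin windows (5.41%), those of Kif17 and Kif5c, and in 1.55% of 32851 windows of the same length from all genes. The Kif2b window held a CCAAT box at 44 bases before the start, and CCAAT was found in 17 of the 37 kinesin windows (45.9%) and in 33.8% of all windows. The Kif27 window held the cell cycle homology letters at 3 places, a match present in 8 of the 37 kinesin windows and 5252 of all windows. The RFX motif was present in 21.6% of kinesin windows and 10.4% of all. The 37 windows belong to 33 kinesin genes. A match is a string of letters and was not tested as a binding site.

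Most kinesins were transcribed in the testis at every age. Of the 41 members, 40 passed the filter on low counts and were tested. The exception was Kif12, a kinesin known from kidney, with 0 counts in every library but WT_d24_2, where it had 2. Kif26b, lowest of the tested members and named after its values were seen, had group means of 0.742 to 1.42 CPM. Per length of exon, in RPKM (CPM per kilobase of exon), 14 kinesins reached 10 in WT testis at day 20 and 16 did so at day 26. Summed over the members, the level was 2755 ± 316 CPM (SD, n = 4) in WT at day 20 and 3719 ± 176 CPM (SD, n = 2) at day 26, and in KO it was 2745 ± 25.02 CPM (SD, n = 4) and 4101 ± 28.4 CPM (SD, n = 2).

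At day 20 the WT testis had no single leading kinesin. Per length, the highest levels were those of Kif9, a motor of the central pair of the flagellum, at 36.1 ± 9.18 RPKM (SD, n = 4), and Kif20a, which acts in cytokinesis, at 35.9 ± 5.48 RPKM. Kif3b followed at 34.8 ± 8.14 RPKM and Kif3a at 32.1 ± 4.95 RPKM, the paired motor subunits of the kinesin-2 that drives intraflagellar transport. Kif2a, a kinesin-13 depolymerase, had 33.2 ± 1.61 RPKM. These 5 levels differed by less than their spread. Kif2b stood 38th of the 41 members at 0.903 ± 0.622 RPKM, and Kif17 39th at 0.641 ± 0.221 RPKM.

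By day 26 the order per length had changed at the top. Kif2b was highest in WT at 150.6 ± 8.51 RPKM (SD, n = 2), 20.9% of the summed level of all kinesins, against 0.214% at day 20. Kif9 came next at 78.4 ± 8.64 RPKM, clear of Kif3b at 56.7 ± 3.90 RPKM and Kif2a at 55.0 ± 6.74 RPKM, which did not differ beyond their spread. Kif20a at 42.6 ± 0.806 RPKM and Kif27 at 41.8 ± 3.67 RPKM were alike within theirs. Kif3a at 33.1 ± 3.96 RPKM and Kif17 at 31.6 ± 1.05 RPKM closed the first 8.

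Between days 20 and 26, 12 of the 40 tested kinesins rose in WT testis (30%) and 4 fell (10%), with edgeR's quasi-likelihood test at an adjusted p under 0.05. Of all 17170 genes tested, 24.4% rose and 18.1% fell. In KO testis 14 kinesins rose (35%) and 7 fell (17.5%), beside 27.2% and 24.9% of all genes. The median log2 fold change of the kinesins was 0.01 in WT and 0.00 in KO, against -0.04 and -0.07 over all genes. Members changed in both directions. The counts of the groups by role, given below, stand beside the same shares of all genes, and differences between the groups were not tested. In a whole testis, fewer cells of a type and less RNA per cell cannot be told apart. Markers of the stage moved with age too: a score of 9 round spermatid genes less 8 pachytene genes, in log2 units, went from between -2.84 and -1.80 in WT at day 20 to 1.77 and 1.78 at day 26. With this stage score as a covariate, 0 kinesins passed with age in WT and 8 in KO, beside 1 and 2017 of the 17170 genes. Its part in the result cannot be told apart from that of age.

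**Figure D1:**
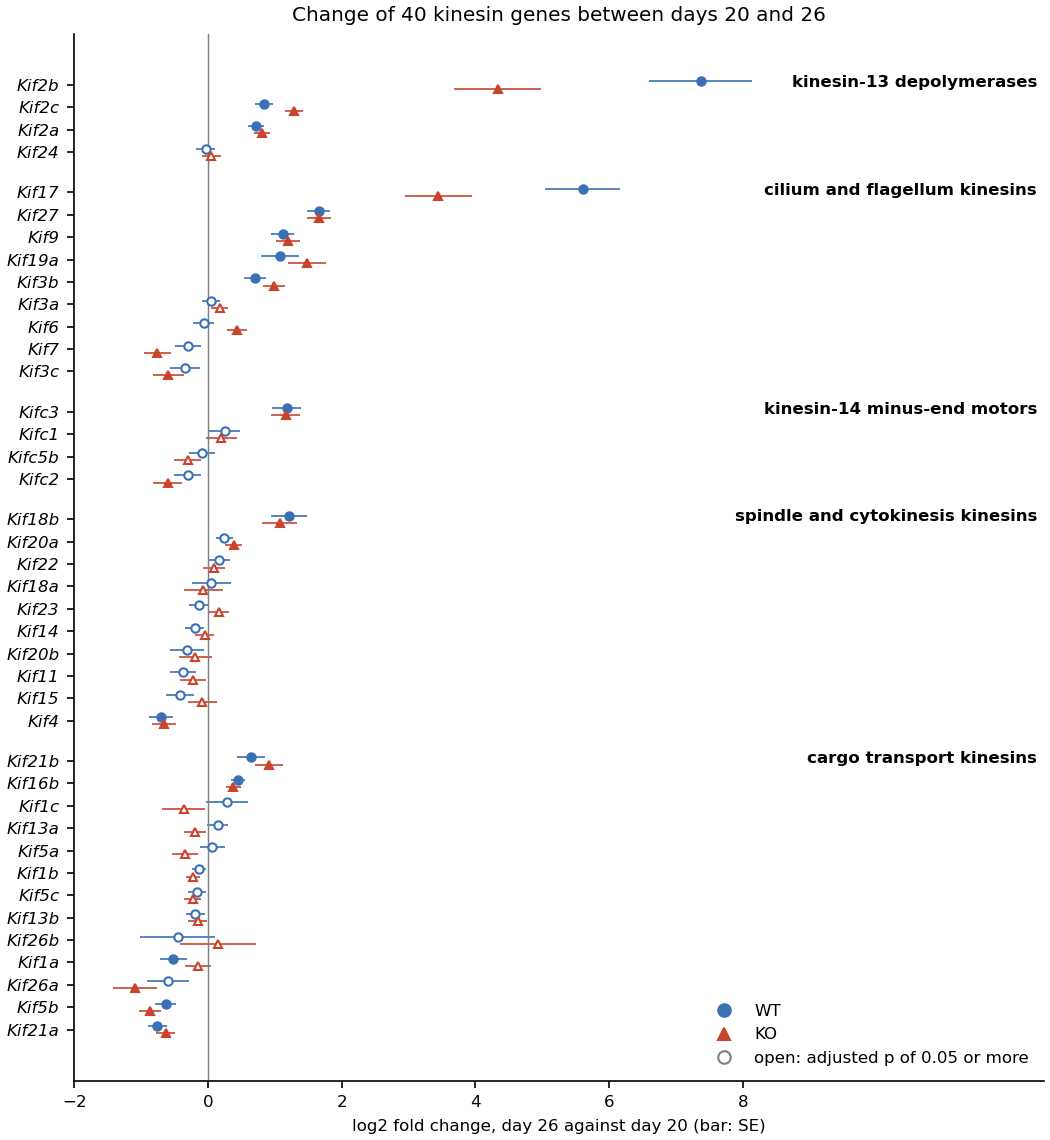
Log2 fold change of each of 40 tested kinesin genes between days 20 and 26 in WT (blue circles) and KO (red triangles), grouped by role, with the standard error as a bar. Filled symbols passed an adjusted p of 0.05. Kif2b (7.37 in WT, 4.33 in KO) and Kif17 (5.61 and 3.45) lie far to the right of every other member.

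The kinesin-13 depolymerases, which strip tubulin from microtubule ends, rose in 3 of 4 members in either genotype, with a group median log2 fold change of 0.78 in WT and 1.04 in KO. Kif2b is a member of this family with a role at kinetochores. Its gene at chr11:91575315-91577558 (GENCODE M21, mm10) is a single exon. In WT it had 2.12, 1.16, 0.867 and 3.96 CPM at day 20, then 39.1, 19.2, 32.0 and 26.2 CPM at day 22. It reached 181 and 136.5 CPM at day 24, and 324 and 351 CPM at day 26. No WT library of one age overlapped those of another, and the group mean rose 14.4-fold, 5.45-fold and 2.13-fold over the successive steps. The fitted rise from day 20 to day 26 was 7.37 ± 0.77 on the log2 scale (SE, adjusted p = 4.6e-07).

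In KO testis Kif2b had 8.42, 3.33, 22.2 and 39.96 CPM at day 20 and 35.6, 166, 86.1 and 48.9 CPM at day 22. It had 199 and 170.0 CPM at day 24 and 368 and 378 CPM at day 26. Within each of the first 2 ages the KO libraries spanned a wide range, and KO_d20_4 lay above KO_d22_1. The fitted rise was 4.33 ± 0.65 (SE, adjusted p = 3.6e-05).

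Kif2c, the depolymerase known as MCAK, had 47.7 to 74.7 CPM in WT at day 20, 65.4 to 80.5 CPM at day 22 and 74.6 and 66.5 CPM at day 24. It then had 120.0 and 96.2 CPM at day 26, above every earlier WT library. In KO it went from between 58.1 and 62.1 CPM to 135 and 155 CPM. The log2 fold change was 0.84 ± 0.14 in WT (SE, adjusted p = 4.3e-05) and 1.28 ± 0.14 in KO (SE, adjusted p = 7.3e-07). Kif2a rose from 203 to 227 CPM at day 20 to 321 and 382 CPM at day 26 in WT, by 0.73 ± 0.12 on the log2 scale. In KO it rose from 209 to 247 CPM to 393 and 405 CPM, by 0.81 ± 0.12. Kif24, which restrains cilia by acting on their microtubules, had -0.03 in WT and 0.05 in KO and did not pass, and is named after its values were seen.

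Kinesins of cilium and flagellum rose in 5 of 9 members in WT, with none lower at an adjusted p under 0.05, and in 6 of 9 in KO, where 2 fell. None of the WT falls in this group had an unadjusted p under 0.05, and DESeq2 called none lower. The group medians were 0.71 and 0.99 on the log2 scale. Kif17 is a kinesin-2 motor that, in round spermatids, binds the CREM coactivator ACT. Its gene lies at chr4:138250435-138301967, and its exons overlap those of Sh2d5 on the same strand, so pairs in the shared stretch were not counted for either. In WT it had 2.83, 2.11, 2.43 and 4.39 CPM at day 20 and 25.9, 11.4, 25.6 and 20.2 CPM at day 22. It had 108 and 68.8 CPM at day 24 and 148 and 141 CPM at day 26, and no age overlapped the next. In KO the day 20 libraries had 7.25, 4.45, 17.2 and 26.3 CPM and the day 22 libraries 23.0, 76.2, 41.0 and 32.5 CPM. They were followed by 70.4 and 71.5 CPM at day 24 and 145 and 157 CPM at day 26. The rise was 5.61 ± 0.56 in WT (SE, adjusted p = 3.2e-07) and 3.45 ± 0.50 in KO (SE, adjusted p = 2.5e-05).

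**Figure D2:**
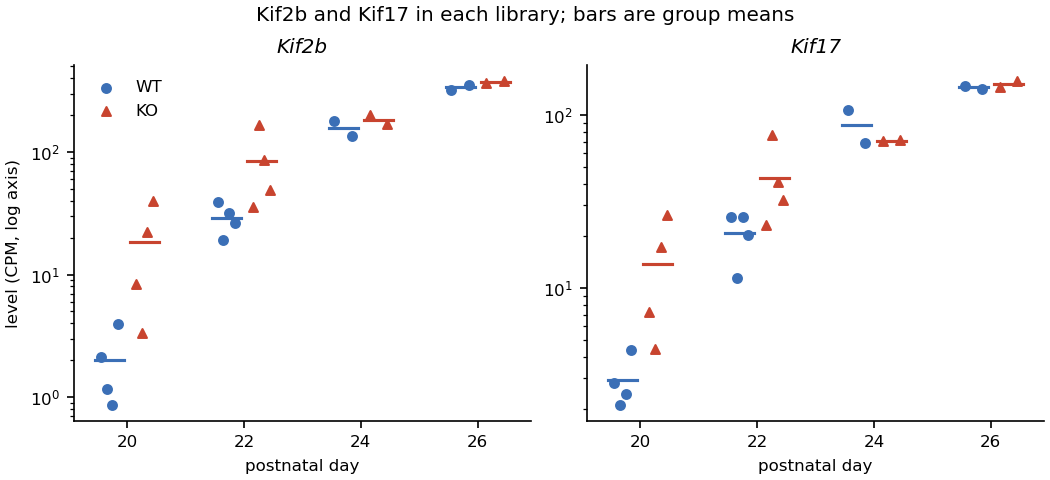
Level of Kif2b and Kif17 in each library (CPM, log axis) by postnatal day, WT as blue circles and KO as red triangles, with the group mean as a bar. At day 20 the KO means of 18.5 and 13.8 CPM lie above the WT means of 2.03 and 2.94 CPM, and at day 26 the genotypes lie close together.

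Kif27, a relative of the Hedgehog regulator Kif7 that is needed for the central pair of motile cilia, rose between days 20 and 26 in both genotypes, with group means higher at each later day. Its WT libraries had 56.5 to 84.6 CPM at day 20, 92.3 to 108 CPM at day 22, 171 and 138 CPM at day 24 and 205 and 232 CPM at day 26. The KO libraries had 66.2 to 86.2, 96.6 to 166, 150.3 to 161 and 235 to 249.9 CPM. The log2 fold change over the whole span was 1.66 ± 0.18 in WT and 1.67 ± 0.18 in KO (SE, adjusted p = 3.4e-07 and 8.0e-07). Kif9 rose from 121 to 199 CPM to 311 and 363 CPM in WT, by 1.12 ± 0.18, and from 174 to 235 CPM to 439.9 and 455 CPM in KO, by 1.20 ± 0.18. Kif3b, at 146 to 254 CPM in WT at day 20 and 304 and 335 CPM at day 26, rose by 0.71 ± 0.17. In KO it went from 210.0 to 242 CPM to 424 and 463 CPM, a rise of 0.99 ± 0.16. Its partner Kif3a had 92.1 to 131 CPM and 109 and 129 CPM in WT on those days, a log2 fold change of 0.05 ± 0.13 that did not pass, and 0.18 ± 0.13 in KO. Kif19a, a depolymerase that limits the length of cilia, rose by 1.08 ± 0.29 in WT and 1.48 ± 0.28 in KO, from 3.58 to 13.3 CPM to 21.8 and 20.2 CPM in WT.

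Kif7, which organises the tip of the cilium in Hedgehog signalling, had 5.58 to 7.86 CPM in WT at day 20 and 5.85 and 5.67 CPM at day 26, and did not pass there (log2 fold change -0.30, SE 0.20). In KO it fell from 6.15 to 9.14 CPM to 4.54 and 4.42 CPM, by 0.75 ± 0.20 on the log2 scale. Kif3c, a kinesin-2 subunit best known in neurons, fell in KO by 0.59 ± 0.23 (SE, adjusted p = 0.036), from 6.96 to 9.07 CPM to 5.65 and 5.16 CPM, and that call was lost without KO_d20_2, KO_d20_3, KO_d20_4, KO_d26_1 or KO_d26_2 in turn (adjusted p of 0.0155 to 0.175 over all 24 fits without a library). The Kif3c call was also lost with RLE scaling, in DESeq2, without the filter on low counts and with the replicate number as a block. Kif6, a motor of ependymal cilia, rose in KO by 0.44 ± 0.15 and had -0.06 ± 0.16 in WT. The call in KO was lost without KO_d20_4, KO_d26_1 or KO_d26_2, with a highest adjusted p of 0.135.

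**Figure D3:**
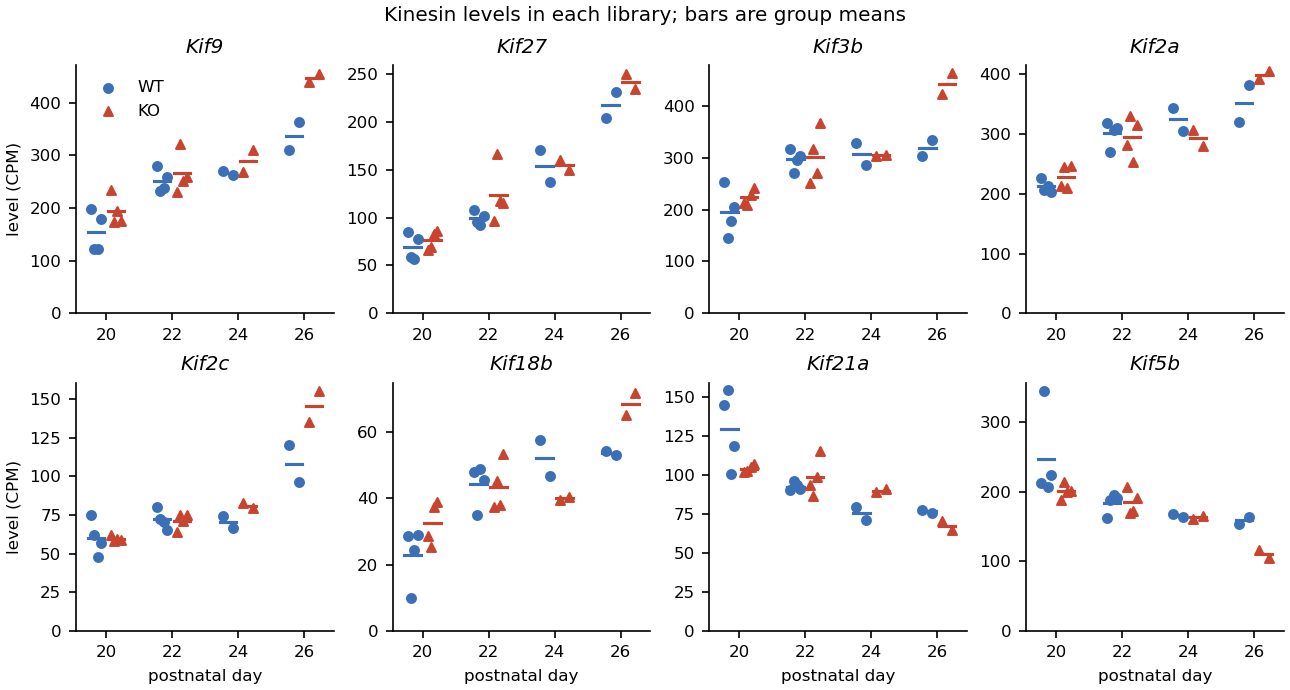
Level of 8 kinesins (CPM, linear axis from 0) in each library by postnatal day, WT as blue circles and KO as red triangles, with group means as bars. The WT mean of Kif27 goes from 69.3 to 218 CPM, while Kif21a and Kif5b decline, with WT_d20_2 high for Kif5b at 345 CPM.

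Among the spindle and cytokinesis kinesins, 1 of 10 rose and 1 fell in WT, and 2 rose and 1 fell in KO, with group medians of -0.16 and -0.06. Kif18b, a plus-end motor that shortens astral microtubules, rose from 10.0 to 29.0 CPM at day 20 to 54.3 and 53.0 CPM at day 26 in WT, by 1.21 ± 0.26 (SE, adjusted p = 0.00088), while with the stage score as a covariate the value was -0.0053. In KO it went from 25.2 to 39.0 CPM to 65.1 and 71.8 CPM, by 1.07 ± 0.26. Kif4, a chromokinesin and the sole member on the X chromosome (chrX:100625737-100727214), fell by 0.70 ± 0.18 in WT (SE, adjusted p = 0.0035) and by 0.65 ± 0.18 in KO (SE, adjusted p = 0.0046). Its level was 20.1 to 37.8 CPM in WT at day 20 and 17.3 and 16.4 CPM at day 26, and in KO 21.7 to 25.2 CPM and 15.6 and 14.8 CPM. The libraries of these ages did not overlap in either genotype. Kif20a rose in KO from 145 to 183 CPM to 213 and 212 CPM, by 0.39 ± 0.12 (SE, adjusted p = 0.012), a call lost without KO_d26_1 or KO_d26_2 (highest adjusted p 0.079). In WT its change was 0.25 ± 0.12 and did not pass.

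The kinesin-14 motors had 1 riser of 4 in WT and, in KO, 1 riser and 1 that fell. Kifc3, a minus-end motor of epithelial junctions and the Golgi, rose from 11.7 to 25.6 CPM to 50.4 and 45.3 CPM in WT, by 1.18 ± 0.22 (SE, adjusted p = 0.00015). In KO it rose from 19.2 to 29.5 CPM to 56.3 and 51.98 CPM, by 1.16 ± 0.21 (SE, adjusted p = 0.00017). Kifc2 fell in KO by 0.60 ± 0.21, from 5.88 to 7.91 CPM to 3.86 and 4.93 CPM, and was not called without KO_d20_2 or KO_d26_1 (highest adjusted p 0.199). Nor was it called in DESeq2 or with the stage score as a covariate. Kifc1, a spindle motor also linked to the manchette and acrosome, and its near copy Kifc5b are counted with uncertainty: 26.1% of the 75-base stretches of Kifc1 and 24.7% of those of Kifc5b also occur in another gene, nearly all in each other. Pairs that aligned to several places were discarded, and how many this cost either gene was not measured. Their group means ran from 7.36 to 10.5 CPM for Kifc1 and from 6.41 to 8.11 CPM for Kifc5b, and neither passed between days 20 and 26.

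Of the 13 cargo transport kinesins tested, 2 rose and 3 fell in either genotype, with group medians of -0.16 in WT and -0.22 in KO. Kif5b, the ubiquitous heavy chain of conventional kinesin, fell from 212, 345, 207 and 224 CPM at day 20 to 154 and 164 CPM at day 26 in WT, by 0.63 ± 0.16 (SE, adjusted p = 0.0035). In KO it went from 188, 214, 200.2 and 202 CPM to 116 and 105 CPM, by 0.86 ± 0.16 (SE, adjusted p = 0.00022). The WT call held in all 24 fits that left out a library in turn, WT_d20_2 included, with a log2 fold change of -0.74 to -0.47. The summed Sertoli cell genes also declined, from 1955 to 2644 CPM in WT at day 20 to 1193 and 1370.3 CPM at day 26, and their part in the result was not tested. Kif21a, which restrains microtubule growth, fell from 100.5 to 154 CPM to 77.5 and 75.7 CPM in WT, by 0.75 ± 0.14, and from 102 to 107 CPM to 70.2 and 64.4 CPM in KO, by 0.63 ± 0.14. Its relative Kif21b rose, by 0.64 ± 0.21 in WT and 0.91 ± 0.21 in KO, with 21.3 to 41.5 CPM in WT at day 20 and 54.4 and 50.7 CPM at day 26. The WT call of Kif21b was lost without WT_d26_1 or WT_d26_2 (highest adjusted p 0.118), and the value turned to -0.12 with the stage score as a covariate. Kif16b, a motor of early endosomes, rose from 52.3 to 64.4 CPM to 78.4 and 80.9 CPM in WT, by 0.45 ± 0.11, and by 0.38 ± 0.11 in KO, where the call was lost without KO_d26_1 (adjusted p = 0.0846).

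Calls of 2 further members of this group were lost without single libraries. Kif1a, a carrier of synaptic vesicle precursors in neurons, had 17.6 to 30.8 CPM in WT at day 20 and 20.6 and 16.9 CPM at day 26, which overlap. Its fall by 0.51 ± 0.20 in WT (SE, adjusted p = 0.044) was lost in 10 of the 24 fits without a library, those without KO_d20_4, WT_d20_1, WT_d20_3, WT_d20_4, WT_d22_4, KO_d24_1, KO_d24_2, WT_d24_1, WT_d26_1 or WT_d26_2 (adjusted p of 0.00119 to 0.304 over all 24 fits), and it had -0.15 in KO. Kif26a, an atypical kinesin without ATPase activity, fell in KO by 1.09 ± 0.32 (SE, adjusted p = 0.0083), from 9.07 to 13.5 CPM to 6.40 and 3.61 CPM, and was not called without KO_d26_2 (adjusted p = 0.158). The fall in WT was 0.60 ± 0.32 and did not pass.

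Genes that work with kinesins were taken from 4 lists, and their counts stand beside the 24.4% higher and 18.1% lower of all genes in WT and the 27.2% and 24.9% in KO. Of 12 subunits and adaptors, 7 rose and 2 fell in WT, and 8 rose and 2 fell in KO. The largest rises were those of Klc3, a testis light chain of conventional kinesin, at 2.74 ± 0.42 in WT and 3.10 ± 0.41 in KO, and of Kifap3, the third subunit of the Kif3 motor, at 1.78 ± 0.15 and 1.49 ± 0.15 (log2, SE). Of 14 genes of the manchette and of intraflagellar transport, 10 rose in WT and 11 in KO and none fell in edgeR, nor did any fall have an unadjusted p under 0.05, with Rimbp3 by 1.77 ± 0.32 in WT. Of 17 dynein and dynactin genes, 3 rose and 3 fell in WT, among them Dctn2 at 1.10 ± 0.17 and Dynlrb1 at -1.51 ± 0.28, and 3 rose and 1 fell in KO. Of 18 partners of the spindle, 3 rose and 2 fell in WT, and 6 rose and 1 fell in KO.

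The comparison of KO with WT at each age asks what the testis without ATAD2 expresses differently. At day 20, 2 of the 40 kinesins were higher in KO (5%) and 0 lower, beside 2.98% and 0.361% of all genes tested. They were Kif2b and Kif17. Kif2b had 2.03 ± 1.40 CPM in WT, while in KO it had 18.5 ± 16.4 CPM (SD, n = 4 each), a ratio of means of 9.12. Its fitted log2 fold change was 3.18 ± 0.68 (SE, edgeR adjusted p = 0.014). KO_d20_2, at 3.33 CPM, lay within the WT range of 0.867 to 3.96 CPM, and the other 3 KO libraries lay above it. Kif17 had 2.94 ± 1.01 CPM (SD, n = 4) in the WT libraries and 13.8 ± 9.99 CPM (SD, n = 4) in the KO libraries, a ratio of 4.70. Its fitted log2 fold change was 2.22 ± 0.50 (SE, edgeR adjusted p = 0.017), and the lowest KO library, at 4.45 CPM, lay just above the highest WT library, at 4.39 CPM.

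Of the other 38 kinesins at day 20, 5 had an unadjusted p under 0.05, with adjusted p of 0.169 to 0.375, as had 2141 of all 17170 genes. Kif18b, Kif9 and Kif22 had a higher level in KO (0.49, 0.33 and 0.29 on the log2 scale) and Kif21a and Kif5b a lower one (-0.32 and -0.30), Kif22 being named after its values were seen. DESeq2 also called 2 kinesins higher and 0 lower. The median over the kinesins was 0.00 and that over all genes 0.00. Kif17 was the single kinesin whose KO libraries all lay above the WT libraries (1 of 40, beside 3.03% of all genes), and for 0 of 40 did they all lie below (beside 1.68%).

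**Figure D4:**
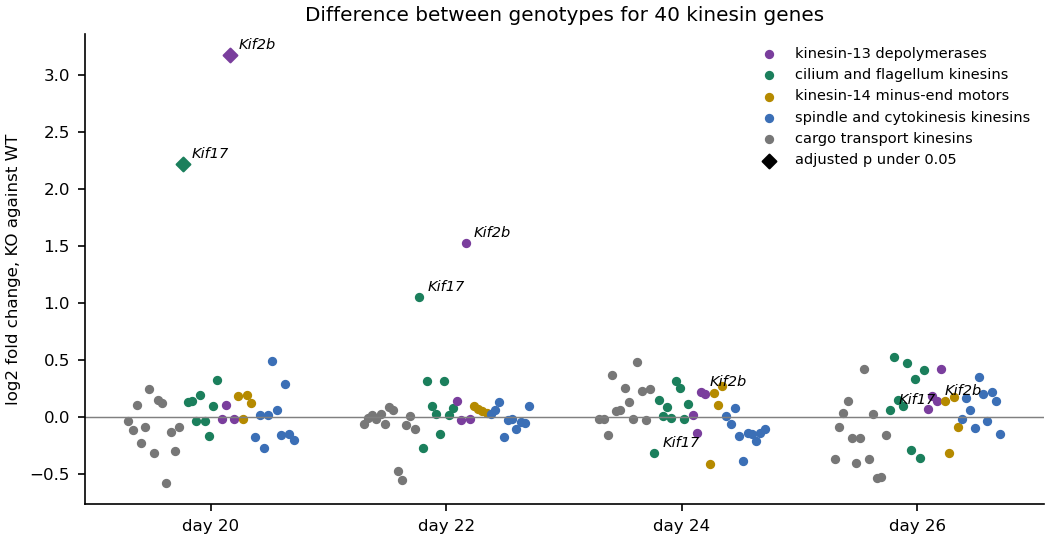
Log2 fold change, KO against WT, of 40 kinesin genes at each day, coloured by role, with diamonds where the adjusted p was under 0.05. Kif2b (3.18) and Kif17 (2.22) stand apart at day 20, lie at 1.53 and 1.05 at day 22, and fall among the other members at days 24 and 26.

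The spermatid markers moved with these calls. The stage score was the mean centred log2 CPM of 9 round spermatid genes minus that of 8 pachytene spermatocyte genes. Neither list holds a kinesin. At day 20 the score was -2.58, -2.84, -2.68 and -1.80 in WT and -1.28, -2.09, -0.18 and 0.32 in KO. KO_d20_3 and KO_d20_4, the libraries with the highest scores, also had the most Kif2b and Kif17, and KO_d20_2, with the lowest, had the least. The summed level of the 8 elongating spermatid genes was 2.001 to 8.93 CPM in WT and 7.06 to 121 CPM in KO at day 20, and that of the 9 round spermatid genes 256 to 424 CPM and 382 to 472 CPM. With the score as a covariate, the day 20 log2 fold change was 0.22 ± 0.24 for Kif2b and 0.07 ± 0.25 for Kif17 (SE, adjusted p = 0.90 and 0.97), and neither passed. In that fit 6 of all genes passed at day 20, against 511 higher and 62 lower without the score, and since the score differed between the genotypes at this day, the parts of genotype and stage cannot be told apart. The WT libraries of day 22 had 19.2 to 39.1 CPM of Kif2b and 11.4 to 25.9 CPM of Kif17. For both genes KO_d20_3 lay inside that range, KO_d20_1 and KO_d20_2 below it and KO_d20_4 just above it.

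**Figure D5:**
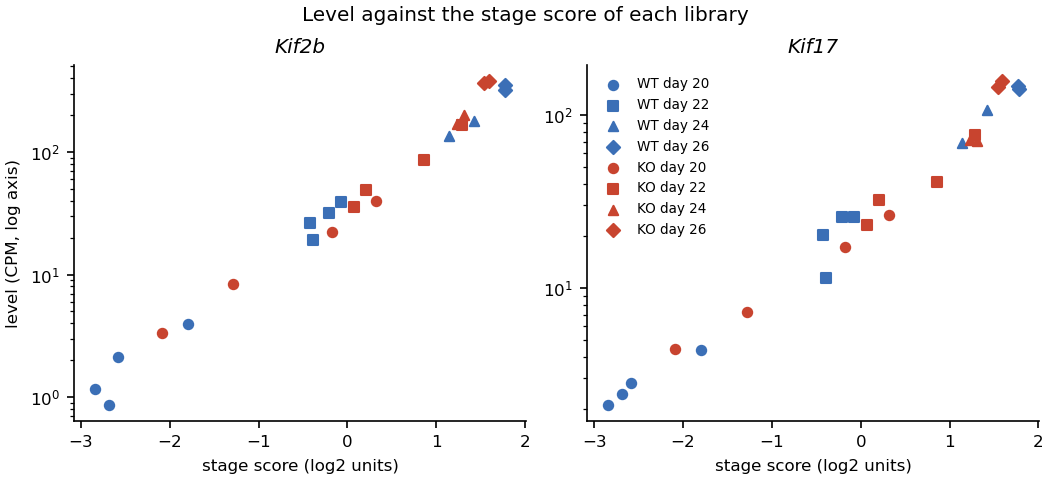
Level of Kif2b and Kif17 (CPM, log axis) against the stage score of each library (log2 units), coloured by genotype and shaped by day. Libraries of both genotypes run along one band, from WT at day 20 (scores of -2.84 to -1.80) to WT at day 26 (1.77 and 1.78).

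Both calls also depended on single libraries. Kif2b was not called without KO_d20_4, WT_d20_1, WT_d20_2 or WT_d20_3, with a log2 fold change of 2.47 to 3.78 and an adjusted p of 0.000961 to 0.0729 over the 24 fits without a library. Kif17 was not called without KO_d20_3, KO_d20_4, WT_d20_1, WT_d20_2 or WT_d20_3 (1.70 to 2.51, adjusted p of 0.00153 to 0.0899 over the same 24 fits), nor with the replicate number as a block (adjusted p = 0.054). Fitted on the libraries of day 20 alone, with log2 fold changes of 3.18 and 2.22, neither passed, and 5 of all genes did.

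At day 22 edgeR called 0 kinesins in either direction, beside 1.26% of all genes higher and 1.25% lower, and DESeq2 called 0, among 737 genes in all. An unadjusted p under 0.05 was found for 4 of 40, and for 2505 of all 17170 genes. Kif2b had 84.1 ± 58.4 CPM (SD, n = 4) in the KO libraries and 29.1 ± 8.44 CPM (SD, n = 4) in the WT libraries, a log2 fold change of 1.53 ± 0.55 (SE, edgeR adjusted p = 0.16). Kif17 had 43.2 ± 23.2 CPM and 20.7 ± 6.78 CPM, a log2 fold change of 1.05 ± 0.43 (SE, edgeR adjusted p = 0.23). The groups overlapped for both. Without KO_d22_2 the log2 fold changes were 0.96 and 0.63. That library was highest, with 166 CPM of Kif2b and 76.2 CPM of Kif17, and had the highest stage score of that day, 1.29, where the WT libraries had -0.42 to -0.07. The others were Kif27 (0.32) and Kif6 (0.31). Kif6, at 30.1 to 37.1 CPM in KO and 25.2 to 27.9 CPM in WT, was the single member whose KO libraries lay above all WT libraries (beside 3.64% of all genes), and 0 lay below (beside 4.45%).

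At day 24, with 2 libraries a group, 0 kinesins passed in edgeR, and 0 among the 37 genes that DESeq2 called. None had an unadjusted p under 0.05 in edgeR, which called 0.0175% of all genes higher and 0.0699% lower. Kif2b was at 199 and 170.0 CPM in KO and 181 and 136.5 CPM in WT, a log2 fold change of 0.22 ± 0.75. Kif17 was at 70.4 and 71.5 CPM in KO and 108 and 68.8 CPM in WT, -0.31 ± 0.58. Both overlapped between genotypes. All KO libraries lay above all WT libraries for 9 of the 40 kinesins and below for 4, beside 22.6% and 21.4% of all genes.

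At day 26, 0 kinesins passed in edgeR, beside 0% of all genes higher and 0.0466% lower, and 0 in DESeq2, which called 138 genes. Kif2b had a log2 fold change of 0.14 ± 0.74 and Kif17 of 0.06 ± 0.58. An unadjusted p under 0.05 was found for 4, Kif3b (0.47), Kif2c (0.43), Kif5b (-0.53) and Kif5a (-0.53), the last named after its values were seen, with adjusted p of 0.274 to 0.353, and 1979 of all 17170 genes had one. Kif3b was at 424 and 463 CPM in KO and 304 and 335 CPM in WT. Kif5b was at 116 and 105 CPM in KO and 154 and 164 CPM in WT. The KO libraries lay above the WT libraries for 15 of 40 kinesins and below for 11, beside 27.8% and 31.1% of all genes. Fitted on the 4 libraries of this day alone, edgeR called 7 kinesins, Kif3b, Kif2c, Kif9, Kif18b, Kif19a and Kif21b higher and Kif5b lower, beside 12.8% of 16465 genes. Most marker sums also separated the genotypes at this day. The KO libraries were higher in pachytene (6727 and 6751 CPM against 5268 and 5680 CPM in WT), round spermatid (1493 and 1612 CPM against 1246 and 1324 CPM), elongating spermatid (3330.3 and 3357 CPM against 2066 and 3214 CPM) and Sertoli cell genes (1422 and 1432 CPM against 1193 and 1370.3 CPM). They were lower in Leydig (872 and 999 CPM against 1095 and 1805 CPM), peritubular (517 and 529.7 CPM against 617 and 666 CPM), endothelial (31.1 and 35.3 CPM against 48.7 and 49.5 CPM), spermatogonial and neuronal genes, and in the stage score (1.54 and 1.59 against 1.77 and 1.78). Early meiosis and blood genes overlapped. As the mean centred log2 CPM of the list, the Sertoli cell genes were instead lower in KO (-0.38 and -0.49 against -0.20 and -0.36 in WT). The Leydig genes overlapped on that scale (0.69 and 0.42 in KO against 1.47 and 0.64 in WT). The other lists that separated kept their direction. The part of these markers in the result was not tested.

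Averaged over the 4 days, 1 of 40 kinesins was higher in KO (2.5%) and 0 lower, beside 3.52% and 3.56% of all genes. It was Kif2b, at 1.27 ± 0.35 (SE, edgeR adjusted p = 0.035). Kif17 had 0.75 ± 0.26 (SE, edgeR adjusted p = 0.088), and DESeq2 called both. Kif5b was the only member with an unadjusted p under 0.05 and a lower level in KO (-0.21, adjusted p = 0.11). The Kif2b call was lost in 14 of 24 fits without a library: without KO_d20_3, WT_d20_2, WT_d20_3, WT_d22_2, WT_d22_3, WT_d22_4 or any library of days 24 and 26 (adjusted p of 0.0083 to 0.101 over all 24 fits). It was also lost with the replicate block (1.26, adjusted p = 0.061) and once the stage score was a covariate (0.22, adjusted p = 0.32). The joint test of whether the KO effect changed between days passed for 0 of 40 kinesins, beside 0.00582% of all genes, in edgeR, and for 0 in DESeq2, which called 264 genes. For 3 of them, Kif17, Kif2b and Kif21a, the unadjusted p of edgeR's joint test was under 0.05, with adjusted p of 0.419 to 0.468. The fitted rise of Kif2b and of Kif17 from day 20 to day 26 was smaller in KO than in WT, and that difference was not tested by itself.

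Of the partner lists, 1 gene passed in a comparison of KO with WT. Plk1, the polo kinase of the spindle, was higher in KO at day 20 by 0.90 ± 0.23 on the log2 scale (SE, edgeR adjusted p = 0.030), the single gene called among 18 spindle partners, where 2.98% of all genes were higher. It rose with age in both genotypes, by 1.98 ± 0.26 in WT and 1.47 ± 0.26 in KO. Whether the day 20 call of Plk1 holds with the stage score, on that day alone or without single libraries was not examined.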

How the data were processed

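Total RNA of 24 mouse testis samples was sequenced by the authors as stranded, ribosome-depleted read pairs. The authors aligned the pairs to mm10 with STAR 2.7.11b and counted those lying wholly in the exons of 1 gene with HTSeq, using the strand and discarding multiple alignments. The version of the gene models is not given in the sources used here. What was deposited is 1 table of raw counts for each library, by gene symbol. Tallies of unassigned pairs, 53.7% to 69.0% of a table, entered neither library sizes nor tests. Precision is limited by the 10709667 to 19491935 assigned pairs of a library and by the spread between libraries of a group. Members, role groups, lists and tests were chosen with earlier results of these data known.

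Genes past edgeR's filterByExpr (minimum count 10) were tested, 17170 in all. The quasi-likelihood test of edgeR 4.0.16 (R 4.3.3, robust, TMM scaling) was fitted to all 24 libraries with 1 term for each of 8 groups, two-sided, with Benjamini-Hochberg adjustment over all genes. CPM are TMM-scaled. RPKM use the exon length of GENCODE M21. Alternatives were RLE scaling, DESeq2 1.42.0, no filter, a replicate block, the stage score as a covariate, fits to 1 day or genotype, and leaving out each library. Same-numbered WT and KO libraries correlated in their deviations from group means at 0.071 to 0.41 at day 20, -0.459 to -0.025 at day 22, 0.39 at day 24 and 0.416 at day 26, not over 0.1 in every pair, so the numbers were not taken as pairs. Pairs of libraries in a group differed by more than sampling noise. The fitting code was tested on simulated data.

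The members named are those past the threshold in a KO contrast, the 10 largest rises and falls with age among those called, the 5 highest per length in WT at days 20 and 26, the untested, the X-linked and the near copies. Of partner lists, genes called in KO or else the 2 largest changes with age are named, except 1 gene not reported here. Motifs were searched in the 250 bases before each start and not in the 50 after it.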

Additional observations from a re-analysis of the deposited data

Results flagged for a closer look

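Among the 25 named kinesins, 100 groups of 4 libraries were searched for a library far from the others of its group, which chance gives in about 1 of 20 groups, and 4 were found. WT_d20_2, the library with the most multiple alignments, had 345 CPM of Kif5b, where the other WT libraries of day 20 had 207 to 224 CPM. The same library had 4.63 CPM of Kifc1, where the others had 8.09 to 8.57 CPM. WT_d22_2 had 13.4 CPM of Kif19a against 19.7 to 20.04 CPM in the others. KO_d22_4 had 12.2 CPM of Kifc1 against 7.75 to 8.42 CPM in the others. That library also had the lowest share of pairs aligning to several places, 4.74%. As mean centred log2 CPM, its peritubular, endothelial, blood and Leydig genes (-1.05, -1.02, -1.13 and -0.50) were lowest in its group. Its Sertoli cell genes (0.28) were highest there.

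Of the 25 named kinesins, 3 had genotypes that did not overlap on days 24 and 26, in opposite directions, with 2 libraries a group, and the difference between these days was not tested by itself. Kif18b was lower in every KO library at day 24 (log2 fold change -0.38) and higher in every one at day 26 (0.35). Kifc1 likewise had -0.41 and 0.14. Kif21a had 0.25 at day 24 and -0.19 at day 26. Outside the named members, Kif1b and Kif5a, chosen after their values were seen, lay like Kif21a above WT in every KO library at day 24 and below at day 26. None of the 6 values given passed the adjusted threshold in the fit of all 24 libraries. Kif18b at day 26 passed in the fit of that day alone. Of all genes, 22.6% and 21.4% lay wholly above or below at day 24 and 27.8% and 31.1% at day 26. The share of all genes that separated in opposite directions on these days was not counted.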

How the results depend on the processing

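Scaling by RLE and DESeq2 left the number of kinesins called at day 20 at 2. Of the day 20 calls, 1 passed with a replicate block, 0 with the stage score as a covariate and 0 with the libraries of that day only, where 333, 6 and 5 of all genes passed (511 higher and 62 lower in the main setting), and leaving out a library gave 0 to 2. For day 26, 7 passed with the libraries of that day only, against 0. For the mean of the 4 days, against 1 call, DESeq2 gave 2, no filter 0, the replicate block 0 and the stage score 0, and leaving out a library gave 0 to 3. With the stage score, 0 kinesins passed with age in WT and 8 in KO, beside 1 and 2017 of all genes, and the sign of Kif18b (-0.0053) and Kif21b (-0.12) in WT turned. The cause was not tested. The settings other than the stage score and left-out libraries gave 15 or 16 age calls in WT, against 16, and 19 to 21 in KO, against 21. In WT they lost Kif1a (RLE, no filter, replicate block, that genotype only), and in KO Kif3c (RLE, DESeq2, no filter, replicate block), Kif6 (replicate block) and Kifc2 (DESeq2), and the replicate block gained Kif15 in WT. Leaving out a library gave 14 to 18 age calls in WT and 16 to 23 in KO, and the falls numbered 6 in WT, against 4, without WT_d20_2 or WT_d20_3, and 9 in KO, against 7, without WT_d20_2. Same-numbered libraries did not correlate over 0.1 in every pair, so the replicate numbers were not taken as pairs. Days 24 and 26 have 2 libraries a group, and members under 10 CPM rest on few reads.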
